A study of Mus musculus with 2 samples.

Results

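IRF4 binding in CH12.LX, a B-cell lymphoma line of the mouse, was read at peaks that hold an AP-1 site but no IRF core beside it. A peak belonged to this class when the 7-base AP-1 consensus, TGACTCA or its reverse complement TGAGTCA, lay within 50 bp of the summit, and no GAAA or TTTC lay wholly within the 10 bases next to either end of that match. The rule used sequence alone and no measured level beyond the summit position. Of 27671 peaks in the deposited mm9 list, 3853 held an AP-1 site in the window. The coreless peaks numbered 2701, which was 70.1% of the peaks with an AP-1 site and 9.76% of the list. A further 1152 peaks had a core beside every AP-1 site and are called cored, and 23818 had no AP-1 site. The word coreless refers to the 10 bases on either side of the site and not to the whole window. A GAAA or TTTC stood elsewhere in the 101-base window around the summit of 1893 of the 2701 peaks (70.1%, median signal 90.8), and 808 (29.9%, median 83.7) had none. This share was not counted in other peaks or other windows, so it is not read as high or low. Within the coreless class, 144 peaks held more than 1 coreless site and 69 also held a cored one.

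The study was chromatin immunoprecipitation with sequencing (ChIP-seq), with an antibody to IRF4, in 2 biological replicates of CH12.LX, an immortalized line from mouse strain B10.H-2aH-4bp/Wts. There was 1 group, with no treatment and no second genotype, so the comparisons are between classes of peaks and of genomic sites. The labels give no separate cultures, and both replicates trace to 1 donor. Replicates 1 and 2 were combined before the mm9 peaks were called, so each of these peaks has 1 signal value and no value per replicate. Read depth is not given in the sources used here, and the scale of the signal is not stated. Peaks within 1 list are not independent replicates, so intervals and p-values describe counting error over peaks or sites only.

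IRF4 is a transcription factor of lymphocytes that is required for plasma cell differentiation and class switching. It binds DNA weakly alone and is known to bind next to partners. One partner is the ETS factor PU.1 or Spi-B, and another is an AP-1 dimer of BATF with a JUN protein, on composite elements in which an IRF core, read as GAAA or TTTC according to strand, stands at a fixed place beside the AP-1 site. In the known AP-1 and IRF composite elements the core is either GAAA directly before TGASTCA (S being C or G) or TTTC with 4 bases between. The AP-1 consensus is also bound by FOS and JUN dimers, and BACH and MAF proteins bind a longer site that adds GC outside it.

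The 6 strongest coreless peaks whose window lay outside annotated exons are printed to show what such a site looks like in place. Each is the 101 bases around the summit on the + strand of mm9, 5′ to 3′, with every AP-1 site in capitals. The window near Grap lies at chr11:61458183-61458283, that near Lrriq3 at chr3:154898580-154898680, that in St6gal1 at chr16:23301969-23302069, that near Kcnip1 at chr11:33910939-33911039, that near Neu3 at chr7:106982412-106982512 and that near Dusp4 at chr8:35734910-35735010.
Grap: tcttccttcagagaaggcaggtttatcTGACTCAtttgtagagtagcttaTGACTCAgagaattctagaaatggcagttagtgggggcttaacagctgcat
Lrriq3: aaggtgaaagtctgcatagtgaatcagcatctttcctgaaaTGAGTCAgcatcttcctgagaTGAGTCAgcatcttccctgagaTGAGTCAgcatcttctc
St6gal1: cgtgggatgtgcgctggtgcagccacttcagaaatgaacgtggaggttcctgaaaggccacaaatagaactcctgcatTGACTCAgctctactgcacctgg
Kcnip1: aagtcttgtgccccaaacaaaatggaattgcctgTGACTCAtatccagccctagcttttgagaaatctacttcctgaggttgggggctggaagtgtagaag
Neu3: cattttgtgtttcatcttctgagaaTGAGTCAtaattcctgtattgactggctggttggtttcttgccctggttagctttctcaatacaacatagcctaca
Dusp4: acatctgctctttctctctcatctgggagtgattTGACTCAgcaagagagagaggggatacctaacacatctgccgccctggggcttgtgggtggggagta
The Grap window holds a pair of coreless sites. The Lrriq3 window holds 3 sites, of which the first has GAAA directly before it, an exact composite, and is the nearest of the 3 to the summit. The other two are coreless, so this peak is among the 69 mixed ones.

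Some coreless sites carry a near-miss of the core at the composite positions, and the next sequences set these beside exact composites. Each is the site with 12 bases on either side, read on the strand that puts the core before the site, with the site and the core or near-core in capitals. The Kcnip1 stretch (chr11:33910961-33910991, - strand) has GATA directly before the site, and the Dusp4 stretch (chr8:35734932-35734962, - strand) has TCTC 4 bases before it. The last 2 are the strongest exact composites of the cored class, upstream of Enpp6 (chr8:48026837-48026867, + strand) and downstream of the Gpr15 start (chr16:58697113-58697143, - strand).
Kcnip1 near-core: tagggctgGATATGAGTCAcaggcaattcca
Dusp4 near-core: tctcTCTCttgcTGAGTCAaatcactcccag
Enpp6 exact core: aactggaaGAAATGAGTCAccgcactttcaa
Gpr15 exact core: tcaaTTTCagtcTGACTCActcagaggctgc
The Enpp6 and Gpr15 peaks had signals of 1426.2 and 1347.7. The Kcnip1 and Dusp4 peaks, with signals of 976.6 and 844.7, have no exact core within 10 bases of the site, though each window holds one farther out.

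The first comparison asked how often IRF4 summits fall on AP-1 sites with and without a core, counted over every AP-1 site of the mm9 genome. Of 342989 coreless sites, 2941 (0.857%, 95% Wilson interval 0.827 to 0.889%) had their centre within 50 bp of a summit. The share was 1267 of 75709 cored sites (1.67%, 1.58 to 1.77%), and over both kinds 1.01% of 418698 sites were bound in this sense. The odds ratio of coreless to cored sites was 0.508 (95% interval 0.476 to 0.543, Fisher's exact test, two-sided, adjusted p = 3.4e-80 over 9 tests). Coreless sites made up 69.9% of the bound AP-1 sites and 81.9% of those in the genome. A site of the same base composition, the AP-1 consensus written backwards, served as a background. With no core beside it, it was bound at 578 of 349371 places (0.165%, 0.153 to 0.179%), so the odds for the coreless AP-1 site were 5.22 times as high (4.77 to 5.71). Its p was below what the software can represent. The coreless AP-1 site therefore lay below the cored site and above its reversed background, and all 3 intervals were apart.

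The cored sites were not uniform. GAAA directly before the site was bound at 283 of 7015 places (4.03%, 3.60 to 4.52%) and TTTC 4 bases before it at 263 of 5390 (4.88%, 4.34 to 5.49%). Sites with a core elsewhere within 10 bp were bound at 724 of 63343 (1.14%, 1.06 to 1.23%). The 2 composite arrangements thus stood highest. The coreless sites, at 0.857%, were nearer to the 1.14% average of sites with a core elsewhere than that average was to either composite.

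Coreless bound sites held near-misses of the core at the composite positions more often than coreless unbound sites did. A core with exactly 1 mismatch was counted at gaps of 0 to 6 bases in both orientations, 14 positions in all, of which 10 (71.4%) passed an adjusted p of 0.05. Directly before the site, 1-mismatch forms of GAAA stood at 23.0% of 2941 bound and 13.6% of 340048 unbound coreless sites (odds ratio 1.89, 1.73 to 2.06, Fisher's exact test, adjusted p = 1.1e-40). At a gap of 4, that of the other composite, 1-mismatch forms of TTTC stood at 19.6% of bound and 12.4% of unbound sites (odds ratio 1.71, 1.56 to 1.88, exact test, adjusted p = 6.9e-27). TTTC forms were also more frequent at bound sites with gaps of 5 (odds ratio 1.32, 1.20 to 1.46) and 6 (1.43, 1.30 to 1.58). The other 6 positions that passed were lower at bound sites, down to an odds ratio of 0.480 (0.409 to 0.563) for TTTC forms at a gap of 1. The same sites differed in base composition, with a mean GC content of 46.7% around bound and 42.7% around unbound coreless sites. Its part in these odds was not tested.

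**Figure D1:**
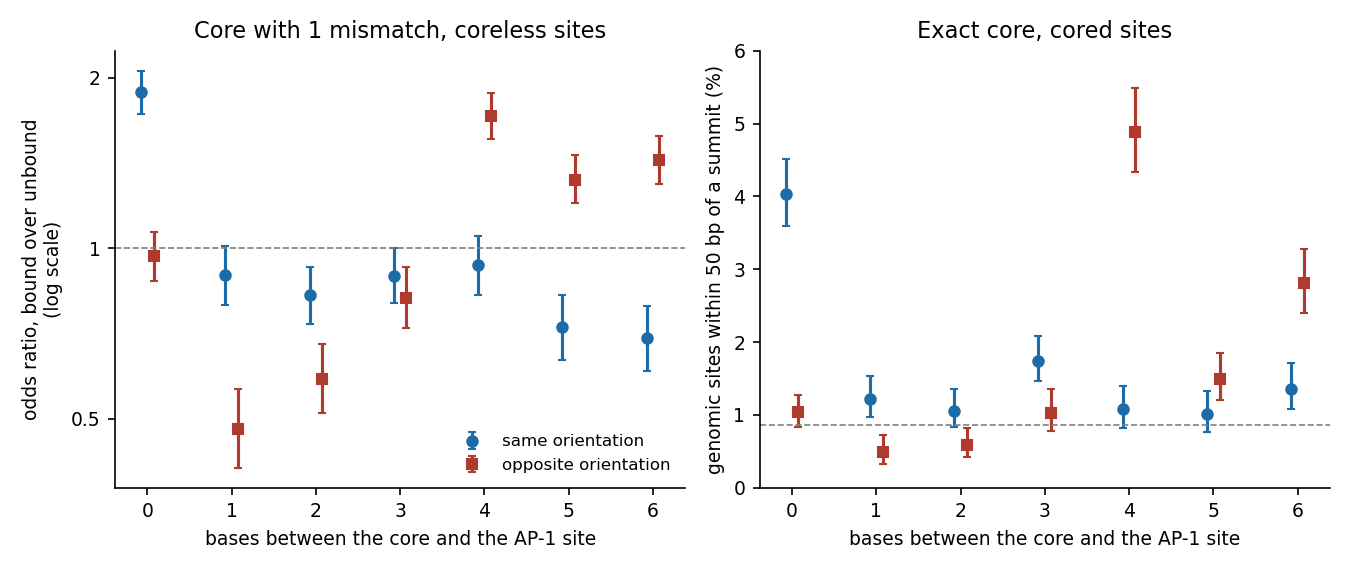
The left panel plots, for each gap in bases between an IRF core with 1 mismatch and a coreless AP-1 site, the odds ratio of bound over unbound sites on a log axis. The right panel plots the percent of genomic cored sites within 50 bp of a summit for an exact core at the same gaps, with the coreless share of 0.857% as a dashed line. Bars are 95% intervals. The same orientation (GAAA read before the site) peaks at gap 0, with 1.89 and 4.03%, and the opposite orientation (TTTC) peaks at gap 4, with 1.71 and 4.88%, in both panels.

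The near-core words were not equal. Sites with TCTC at the gap of 4 were bound at 122 of 3292 places (3.71%, 3.11 to 4.41%) and those with TTCC there at 61 of 2375 (2.57%, 2.00 to 3.29%). Directly before the site, GATA gave 68 of 2383 (2.85%, 2.26 to 3.60%). At the low end, GAAT directly before the site gave 16 of 2258 (0.709%, 0.437 to 1.15%) and TATC at the gap of 4 gave 21 of 2801 (0.750%, 0.491 to 1.14%). TCTC and GATA, named as the highest words at their gaps, stood between the coreless sites as a whole and the exact composites by their shares. The TCTC interval overlapped those of both exact composites, and the GATA interval met that of GAAA. GAAT and TATC, the lowest words at their gaps, did not stand above the coreless sites as a whole.

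The base touching the site moved with binding as well. Among bound coreless sites 35.4% of the touching bases were A, against 24.3% among unbound ones. With A outside both ends, 314 of 19659 sites were bound (1.60%, 1.43 to 1.78%), and with T outside both ends 68 of 17287 (0.393%, 0.310 to 0.498%). Since most 1-mismatch forms of GAAA end in A, the test at gap 0 was repeated within sites that have A at an end. There the words stood at 32.5% of bound and 25.5% of unbound sites (odds ratio 1.41, 1.28 to 1.56, Fisher's exact test, p = 4.2e-11, chosen after the values were seen). In sites with A at neither end, GAAC, GAAG and GAAT together stood at 6.49% of bound and 3.91% of unbound sites (odds ratio 1.71, 1.35 to 2.15, exact test, p = 2.9e-05). These words differed. Over all coreless sites, those with GAAG were bound at 1.63% (1.27 to 2.08%), with GAAC at 0.868% (0.612 to 1.23%) and with GAAT at 0.709%.

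The longer site of BACH and MAF proteins, with GC next to TGASTCA at 1 end or more, was read in the same way. It was present at 581 of 2941 bound coreless sites (19.8%, 18.4 to 21.2%) and 46015 of 340048 unbound ones (13.5%, 13.4 to 13.6%). The odds ratio was 1.57 (1.44 to 1.72, Fisher's exact test, adjusted p = 2.9e-20). Here too the higher GC content around bound sites moved with the result, and its part was not tested. The base outside GC was left free, and the shares bound differed by it. They were 1.68% (1.26 to 2.24%) with CGC, 1.53% (1.37 to 1.71%) with TGC and 1.09% (0.910 to 1.30%) with GGC before TGASTCA. With AGC the share was 0.882% (0.744 to 1.05%), close to the 0.857% of all coreless sites.

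The peaks were then compared by signal. Coreless peaks ran from 41.5 to 1743, with a median of 88.1 and quartiles of 58.2 and 160.2. Cored peaks had a median of 96.8 and peaks with no AP-1 site one of 67.7. The strongest quartile of the whole list took in 1000 of 2701 coreless peaks (37.0%, 35.2 to 38.9%), against 485 of 1152 cored peaks (42.1%, 39.3 to 45.0%) and 5433 of 23818 peaks with no AP-1 site (22.8%, 22.3 to 23.3%). The odds ratio was 0.808 against cored peaks (0.702 to 0.931, Fisher's exact test, adjusted p = 0.00510) and 1.99 against peaks with no AP-1 site (1.83 to 2.16, adjusted p = 7.7e-55). Against cored peaks in one of the 2 composite arrangements the odds ratio was 0.681 (0.564 to 0.824, exact test, p = 9.4e-05). Against cored peaks with the core elsewhere it was 0.932 (0.780 to 1.11, exact test, p = 0.439), and this interval includes both no difference and a difference of the size seen against all cored peaks.

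**Figure D2:**
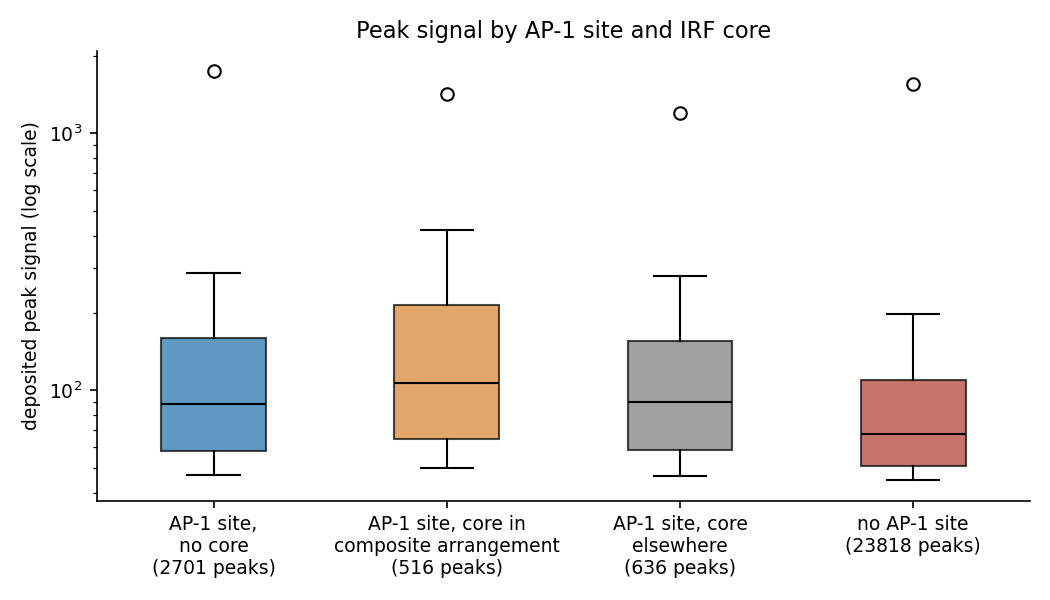
Deposited peak signal on a log axis for coreless AP-1 site peaks, cored peaks in the composite arrangements, cored peaks with the core elsewhere and peaks with no AP-1 site. Boxes span the quartiles with the median as a line, whiskers run from the 10th to the 90th percentile and the circle is the highest peak. The medians are 88.1, 106.8, 89.8 and 67.7, and the ranges overlap widely.

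Along the ranking by signal, coreless peaks made up 16.5% of the strongest decile (457 of 2767 peaks). Their share was lower in each next decile down to the ninth, at 6.25%, and was 6.76% in the weakest. The share of cored peaks ran from 8.46 to 2.31% over the same deciles. Among the 100 strongest peaks of the list 13 were coreless, 17 cored and 70 without an AP-1 site.

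**Figure D3:**
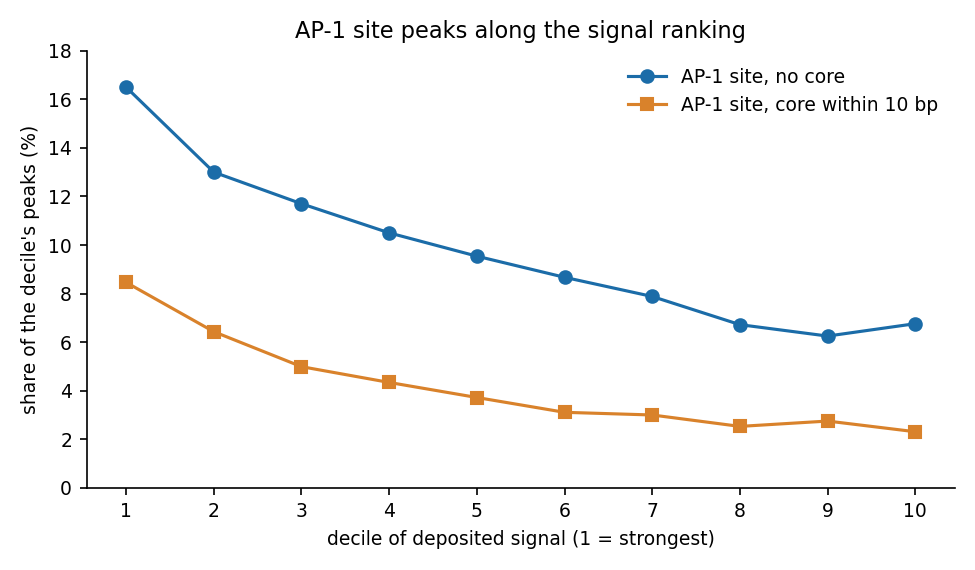
Percent of the peaks in each decile of deposited signal, from the strongest at 1 to the weakest at 10, that are coreless or cored AP-1 site peaks. Coreless peaks run from 16.5% to 6.76% and lie above cored peaks in all 10 deciles.

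Within the class, signal was set beside the features of the site. Peaks with a near-core at either composite position (1109, or 41.1%) had a median of 92.4, against 85.2 in the 1592 with neither. Peaks with 2 coreless sites had a median of 103.7 (134 peaks) and those with 1 a median of 87.7 (2557 peaks). The 69 peaks that also held a cored site had a median of 142.8, the highest of the groups given here. Peaks with GC outside 1 end had a median of 92.0 (521 peaks) and those with GC outside both a median of 74.9 (17 peaks). All of these distributions overlapped, and none was tested. At the limit of the rule, the 157 coreless peaks whose nearest core ended 7 to 8 bases from the site had a median of 92.9, and the 261 cored peaks at 5 to 6 bases one of 97.2.

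The rule places every site within 50 bp of the summit. The site's centre was within 10 bp of the summit in 934 coreless peaks (34.6%) and in 424 cored peaks (36.8%), and Fisher's exact test gave an odds ratio of 0.908 (0.786 to 1.05) with an adjusted p of 0.222. The median signal was 92.7 for these centrally placed coreless peaks and 77.0 for the 162 whose site lay 41 to 47 bp out.

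Coreless peaks lay mostly in introns (1289 peaks, 47.7%) and between genes (1338 peaks, 49.5%), with 50 in UTRs and 24 in coding exons of protein-coding genes. Within 1 kb of a protein-coding start lay 167 of them (6.18%, 5.34 to 7.15%), against 4206 of the peaks with no AP-1 site (17.7%, 17.2 to 18.1%). The odds ratio was 0.307 (0.262 to 0.361, Fisher's exact test, adjusted p = 2.5e-63), and 0.447 within deciles of the GC content beside the window. Cored peaks had 4.77% at starts (3.69 to 6.16%), and the odds ratio against them was 1.31 (0.961 to 1.80, exact test, adjusted p = 0.124). The median distance to a start was 22865 bp for coreless peaks, 24724 bp for cored peaks and 15645 bp for peaks with no AP-1 site. Another summit lay within 5 kb of 42.0% of coreless peaks and of 42.5% of peaks with no AP-1 site, and Fisher's exact test gave an odds ratio of 0.979 (0.903 to 1.06) with an adjusted p of 0.608.

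**Figure D4:**
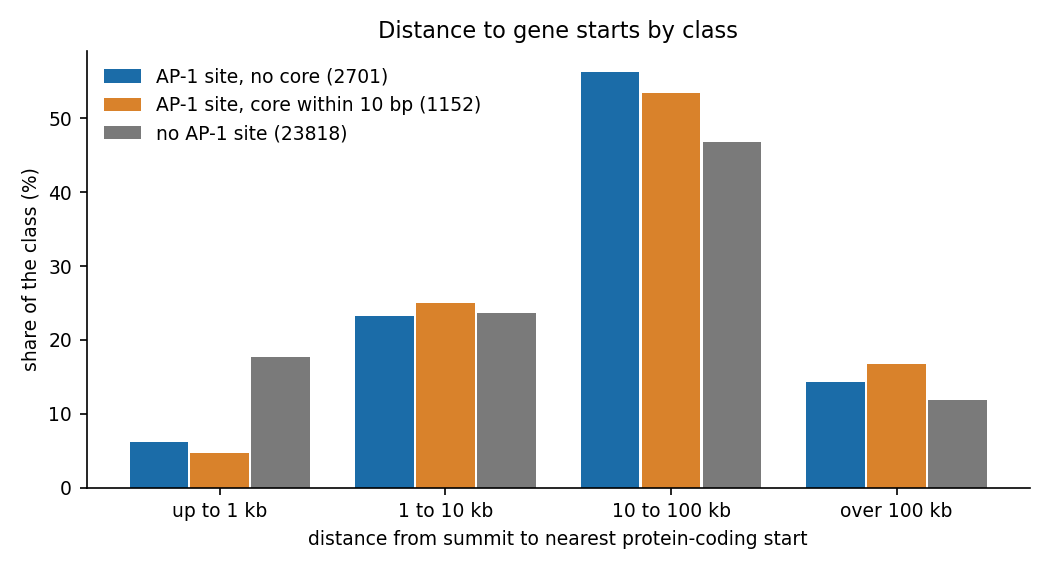
Percent of coreless AP-1 site peaks, cored peaks and peaks with no AP-1 site by the distance from summit to the nearest start of a protein-coding transcript. At up to 1 kb the shares are 6.18, 4.77 and 17.7%, and at 10 to 100 kb they are 56.3, 53.4 and 46.8%.

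Coreless peaks were found on all chromosomes read. They made up from 7.81% of the peaks on chromosome 16 to 13.1% on the X chromosome. The share of coreless genomic sites under a summit was 1.64% on chromosome 11 and 1.12% on chromosome 16, the highest of the chromosomes read, and 0.263% on the X chromosome, the lowest. Chromosome 11 also had the most peaks of all kinds, 3050.

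Motifs of other factors were searched on both strands of the 101-base window. Of 15 motifs, 6 (40.0%) differed between coreless peaks and peaks with no AP-1 site at an adjusted p of 0.05, and 5 of them were rarer in coreless peaks. The AP-1 site takes 7 of the 101 bases, so a coreless window has less room for another motif than one with no AP-1 site. How far this alone lowers the odds ratios was not tested. PU.1 and Spi-B sites (GAGGAAGT) were in 2.81% of coreless peaks and 5.29% of peaks with no AP-1 site (odds ratio 0.519, 0.410 to 0.656, Fisher's exact test, adjusted p = 1.2e-08). NF-kB sites were in 109 coreless peaks (4.04%) and 1430 peaks with no AP-1 site (odds ratio 0.658, 0.540 to 0.803). Some forms of the NF-kB consensus hold GAAA or TTTC, which the rule bars beside the site, so nothing is read from this difference. CTCF sites were in 0.703% of coreless peaks and 2.65% of peaks with no AP-1 site (odds ratio 0.260, 0.165 to 0.412). The promoter motifs of SP and KLF proteins (GGGCGGG) were in 1.18% of coreless peaks and 3.38% of peaks with no AP-1 site. The ETS motif CCGGAAGT was in 0.407% of coreless peaks and 1.34% of the others. In windows of the same length 300 bp away, PU.1 sites were in 0.926% of coreless peaks and 0.554% of peaks with no AP-1 site. For CTCF sites these shares were 0.0370 and 0.0462%. The order for PU.1 was thus opposite to that at the summit, and was not tested.

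Away from starts the picture changed for some of these. Among peaks over 1 kb from a start, the ETS and SP/KLF motifs no longer passed (exact test, adjusted p = 0.660 and 0.0657). RUNX sites (TGTGGTT) did, at 4.89% of coreless peaks and 6.65% of peaks with no AP-1 site (odds ratio 0.722, 0.597 to 0.872, exact test, adjusted p = 0.00149). The octamer ATGCAAAT of OCT1 and OCT2 also passed, at 2.21% of coreless peaks and 3.05% of the others (odds ratio 0.719, 0.545 to 0.948, exact test, adjusted p = 0.0443). PU.1, NF-kB and CTCF sites passed there too and were rarer in coreless peaks. The limits given above hold here as well, for the room that the AP-1 site takes and for the letters of NF-kB.

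The word TGCTGA, part of the site of BACH and MAF proteins, was the 1 motif more frequent in coreless peaks, at 17.7% against 8.40% of peaks with no AP-1 site. Its last 3 bases can be the first 3 of the AP-1 site, so the letters of the rule raise it. Against cored peaks 2 of 15 motifs passed (13.3%), TGCTGA at 17.7% against 12.8% and the STAT motif TTCNNNGAA at 2.92% against 5.12%. Both share letters with what the rule requires or bars beside the site, so nothing is read from them. Cored windows, like coreless ones, give up room to an AP-1 site. For PU.1, NF-kB, RUNX and the octamer, the interval of the odds ratio against cored peaks included 1, from 0.614 to 1.61 for the octamer and from 0.847 to 1.80 for NF-kB. The composite of ETS and IRF (GGAA, 2 bases, then GAAA) was present farther out in the window in 91 coreless peaks (3.37%). It was in 3.04% of cored peaks, 9.55% of peaks with no AP-1 site and 0.740% of coreless windows 300 bp away. The rule bars its GAAA beside the site, so these shares were not tested. Coreless peaks with it had a median signal of 111.8, against 87.8 without it.

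The strongest peak of the whole mm9 list was coreless. It lay 8534 bp upstream of Grap, a GRB2-related adaptor of lymphocyte signalling, with a signal of 1743.4. It stood in a crowded stretch, with 19 other summits within 50 kb, against a median of 3 for coreless peaks. The next, 142232 bp downstream of the Lrriq3 start, is the mixed peak whose central site is an exact composite. It had a signal of 1364.4 and 3 other summits within 50 kb. The third lay in an intron of St6gal1, the sialyltransferase that makes the ligand of CD22 on B cells, with 1086.8 and 17 other summits within 50 kb. These 3 peaks ranked 1, 5 and 18 in the list.

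Next came peaks 18153 bp upstream of Kcnip1, a calcium-binding partner of potassium channels (976.6), and 111 bp downstream of the start of Gbp3, an interferon-induced GTPase (929.3). A peak of 870.4 lay 5535 bp upstream of Neu3, a sialidase of the plasma membrane. Dusp4, a phosphatase that inactivates MAP kinases, was the nearest gene to a peak of 844.7, though 135391 bp away. Introns of Lrmp, a membrane protein of the endoplasmic reticulum in lymphoid cells, and Sik3, a salt-inducible kinase, held peaks of 825.4 and 806.8. The tenth, 78393 bp downstream of the start of Npnt, an extracellular matrix protein, had 783.2. Of the 10, only the Gbp3 peak lay within 1 kb of a start.

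At gene starts, the peak of Gbp3 was followed by those of Ppm1m, a protein phosphatase (633.4, 822 bp upstream), and Lgals8, a galectin (590.8, 857 bp downstream). Slc25a45, of the mitochondrial carrier family, had one of 463.8 at 320 bp downstream, and Dusp14, a dual-specificity phosphatase, one of 362.5 at 79 bp upstream. The Slc25a45 peak has its site 46 bp from the summit, near the edge of the window, while the Dusp14 peak has it at the summit itself.

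Over 22208 protein-coding genes, 1779 (8.01%) had a coreless summit in the gene or within 10 kb of it, which was 17.1% of the 10434 genes with a summit of any kind. Of these, 1501 had 1 such summit, 216 had 2 and the rest more. The gene model Gm20388 had the most, 10 of its 96 summits, but spans 4435 kb and covers other genes, such as Trhr2, whose start lies 1164 bp from the strongest of them. Specc1 and Etl4 had 6 each, in genes of 266.2 and 900.9 kb. St6gal1 and Runx2, a RUNX transcription factor, were among 5 genes with 5 each, of 24 and 14 summits. Gene length sets how many summits a gene can collect, and the all-gene median was 15.5 kb. The counts by list below stand beside these shares of 8.01% of all genes and 17.1% of genes with a peak, and were not tested.

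Genes of B cell identity had coreless peaks at 8 of 15, with a median gene length of 96.1 kb, and all 15 had a peak of some kind. Ikzf3, which encodes Aiolos, had the strongest of the list, with 510.0 in an intron and a pair of coreless sites in the window. Foxp1, a forkhead factor of B cell development, had 404.1, and Tcf4, the E protein E2-2, had 236.2. Pax5, Ebf1, Pou2f2, Aff3 and Tcf3 made up the rest. Among plasma cell genes 6 of 12 had one, and 10 had a peak of some kind. Zbtb20, a zinc finger repressor needed for long-lived plasma cells, had 779.1. Ell2, the elongation factor that favours secreted immunoglobulin mRNA, had 627.6, and Il6ra, the receptor for IL-6, had 329.6. Prdm1, Xbp1 and Creb3l2 also had one.

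Genes of B cell receptor signalling had coreless peaks at 7 of 17, led by Plcg2, the phospholipase downstream of the receptor (299.4), Vav1, a guanine exchange factor (142.7), and Inpp5d, the inhibitory lipid phosphatase SHIP (89.6, 63 bp from its start). The MAP kinase pathway and its inhibitors had 7 of 21. The first of these were Dusp2 (279.2) and Dusp5 (84.4), both MAP kinase phosphatases, and the kinase Map2k3 (121.8). Among IRF and ETS partner genes 3 of 13 had one. Ets1 had 508.3, Etv6 136.2 and Fli1 68.8, all in introns. In the order given, 16, 18 and 13 genes of these lists had a peak of some kind. Their median gene lengths were 53.4, 60.9 and 20.3 kb, against 15.5 kb over all genes. Of all genes with a peak, 17.1% had a coreless one.

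The cytokine and chemokine list, at a median length of 5.41 kb, had 7 of 20. Il10, the anti-inflammatory cytokine, had 121.1 in an intron 1279 bp from its start. Tnf, Ltb and Lta lie next to each other and shared 1 peak of 64.5 in an intron of Tnf. Cytokine receptors had 4 of 17, with Il5ra at 335.4, Il21r at 122.2 and Il10rb at 123.3, the last in an intron of the neighbouring Ifnar2. Costimulatory genes had 4 of 16, with Cd70 at 389.5, Icosl at 206.6 and Tnfrsf9, which encodes 4-1BB, at 83.7, 26 bp from its start. Adhesion and migration genes had 4 of 17, with the tetraspanin Cd9 at 124.8, the chemokine receptor Cxcr5 at 111.5 and the integrin Itgb7 at 109.7. In the order given, 15, 15, 11 and 14 genes of these lists had a peak of some kind.

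Genes of the AP-1 and related bZIP family themselves had coreless peaks at 4 of 21, while 18 of the 21 had a peak of some kind. Jdp2, a bZIP repressor of AP-1, had 293.5, and the small MAF protein gene Maff 109.8. Bach2, a repressor that holds back plasma cell differentiation, had 1 coreless summit of its 12, at 203.3 in an intron, and Bach1 was the fourth. Batf had 6 summits and Irf4 had 4, none of them coreless. Oxidative stress genes that are known targets of MAF and NRF2 sites had 2 of 14, near Sqstm1 (293.7, in an intron of the neighbouring Mgat4b) and Prdx1 (212.9). In that list 9 genes had a peak of some kind. Of 15 housekeeping genes, with a median length of 5.84 kb, none had one and 9 had a peak of some kind. With 17.1% of all genes with a peak having a coreless one, a count of 0 among 9 is close to the background.

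The sites at Bach2, Il10 and Ets1 are printed because these genes bear on B cell fate, each as the 101 bases around its summit on the + strand of mm9 with the AP-1 site in capitals. They lie at chr4:32492265-32492365, chr1:132917651-132917751 and chr9:32459960-32460060.
Bach2: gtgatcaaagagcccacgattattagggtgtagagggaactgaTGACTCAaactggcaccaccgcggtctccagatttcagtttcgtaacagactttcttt
Il10: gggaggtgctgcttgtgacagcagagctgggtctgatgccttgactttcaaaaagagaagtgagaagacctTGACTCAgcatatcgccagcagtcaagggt
Ets1: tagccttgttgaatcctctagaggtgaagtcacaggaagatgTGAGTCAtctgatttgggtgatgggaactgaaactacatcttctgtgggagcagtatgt
The Il10 site is followed by GC, which makes the extended form, and the other two are not.

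**Figure D5:**
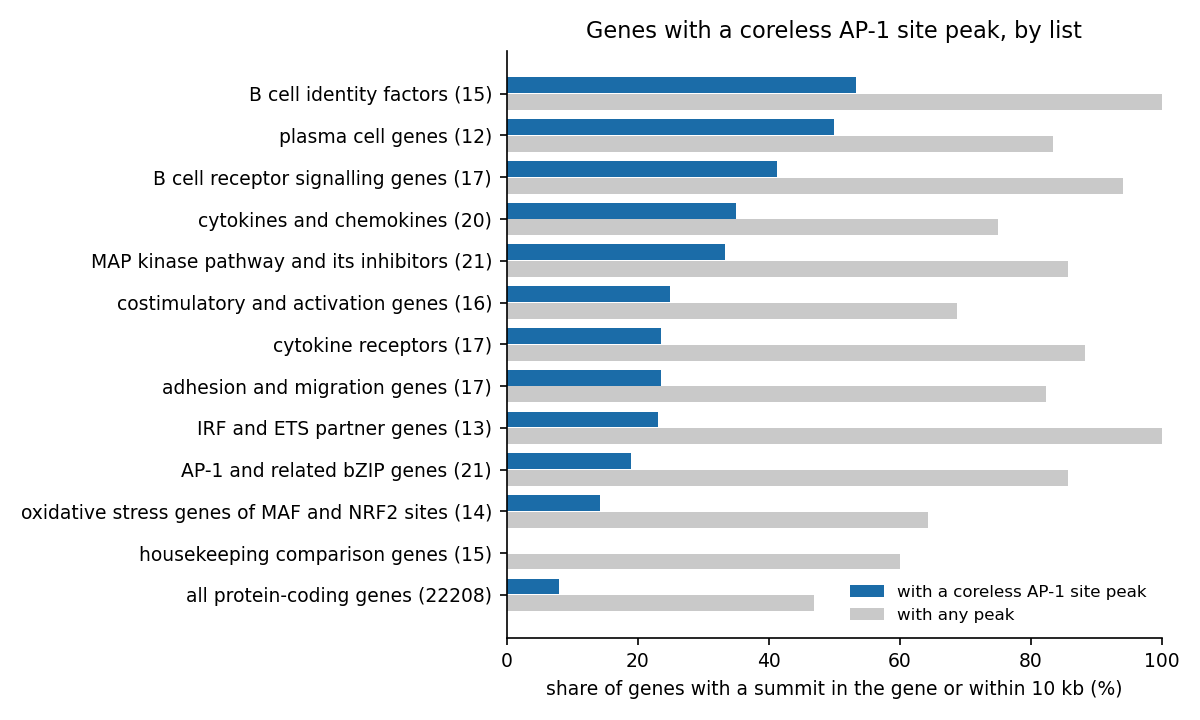
Percent of the genes of each list, with the number of genes in parentheses, that have a coreless AP-1 site summit in the gene or within 10 kb (blue) or a summit of any kind (grey). All protein-coding genes are at the bottom, with 8.01% for coreless summits. B cell identity factors are highest, with 8 of 15 genes, and the housekeeping genes have none.

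Values per replicate could be read on mm10, where lists of each replicate exist, at sites in RefSeq promoter sequences of GRCm38 (250 bases before to 50 after a start). Of 1329 coreless AP-1 sites there, 102 (7.67%, 6.36 to 9.23%) had a summit of the thresholded list of both replicates within 50 bp. For cored sites this was 11 of 250 (4.40%, 2.47 to 7.71%), with overlapping intervals and no test. The coreless share was the higher one at these mm10 promoters, the opposite order to that over the whole mm9 genome (0.857% of coreless and 1.67% of cored sites). At 87 of the 102 coreless sites both replicates had a summit within 100 bp. The signal was higher in replicate 2 at 74 of these 87, with a median log2 ratio of replicate 2 to replicate 1 of 0.53 (SD 0.53 over sites, from -0.80 to 2.55). The spread between replicates at single sites was thus as large as the shift between them. The lists of replicates 1 and 2 held 215095 and 300000 peaks. The shift over all of those peaks was not read, so this one is not taken as particular to coreless sites. The 102 sites lay in 99 peaks, so some peaks were counted more than once.

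The same 27 bases, site and flanks, were found in a coreless mm9 peak of the same chromosome for 53 of the 102. The 3 strongest of these, chosen for their strength, were at the starts of Tnfrsf8, Gm12092 and Cyth1. Tnfrsf8, which encodes the activation receptor CD30, had 95.7 in replicate 1 and 132.1 in replicate 2 on mm10, and 322.3 in the mm9 list. Gm12092 had 87.9 and 87.6 in replicates 1 and 2, and 281.5 in the mm9 list. Cyth1, a guanine exchange factor of ARF proteins, had 81.4 in replicate 1, 90.1 in replicate 2 and 262.8 in the mm9 list. Signals of the 2 builds come from separate calls and are not on 1 scale.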

How the data were processed

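The analysis began from peak lists in narrowPeak format deposited by the authors. Per the descriptions deposited with them, the mm9 list came from alignments of replicates 1 and 2 combined, naming no control, and the mm10 lists came from each replicate and from thresholding them for reproducibility. The deposited signal of each peak, column 7, is the authors' own value. Its scale, the peak caller, the aligner and the depth are not given in any source used here. It was used to rank and describe peaks within a list.

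The summit was the start plus the offset of column 10. Sequence came from the mm9 genome and starts, exons and introns from GENCODE protein-coding transcripts of that build. All peaks on chromosomes 1 to 19 and X were read. A core had to lie wholly within 10 bases of the site. A genomic site was called bound when its centre was within 50 bp of a summit. Shares carry Wilson 95% intervals, odds ratios Woolf intervals, and p-values are from two-sided Fisher's exact tests with Benjamini-Hochberg adjustment over 9 tests, over 15 motifs or over 14 positions. These cover counting error only, since sites and peaks are not replicates. The 15 motifs were searched by letters. For PU.1 these were GAGGAAGT, for the ETS family CCGGAAGT, for the octamer ATGCAAAT and for RUNX proteins TGTGGTT. The E-box words were CAGCTG and, as a separate motif, CAGGTG, which can share bases with the end of the AP-1 site. The CRE was read as TGACGTCA, the C/EBP motif as TTGCNNAA, the STAT motif as TTCNNNGAA, the GATA motif as AGATAAG, the SP/KLF motif as GGGCGGG and the BACH/MAF motif as TGCTGA. EBF1 was TCCC, then 2 bases, then GGGA, and NF-kB and CTCF were searched by their usual consensus. Counts of genes are descriptions with no test. Where a symbol had more than 1 gene ID, the one with most coreless summits was kept.

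Genes were named by rule: those at the 10 strongest coreless peaks, the 5 with most coreless summits, the 3 with the strongest coreless summit in each list, the 5 strongest within 1 kb of a start, and Irf4, Batf and Bach2. Other names, such as Enpp6 and Gpr15, were chosen after their values were seen, as were the gene members listed without a value. The members, lists and tests were chosen with earlier results of these data known. Classification and tests were tested on simulated data. Python 3.11.15, scipy 1.17.1, statsmodels 0.14.6 and pandas 2.3.3 were used.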

Additional observations from a re-analysis of the deposited data

How the results depend on the processing

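The search window (25 and 100 bp), the distance searched for the core (5 and 20 bp), the peaks above the median signal, GC content, the promoter and neighbour distances, and leaving out chromosomes 11 and 16 were varied 1 at a time. On mm9, the odds ratios for bound sites, the excess of coreless peaks in the strongest quartile over peaks with no AP-1 site, their low promoter share and the extended site kept their direction and their side of the threshold in each alternative run. The bound shares and the extended site were not run with the core within 5 bp. Against cored peaks less was stable. The odds ratio for the strongest quartile was 0.893 with the core within 5 bp, 0.852 in the peaks above the median signal and 0.932 without the 2 composite arrangements, an alternative chosen after seeing the data, and none of these passed. That for the promoter share was 1.41 with a window of 100 bp and 1.38 with the core within 20 bp, both past the threshold, and 0.948 with the core within 5 bp. That for the central site was 0.791 with a window of 100 bp, past the threshold, and 1.01 with the core within 5 bp. With the core within 5 bp, 1 motif differed from cored peaks. The odds ratio for a neighbouring summit was 1.00 within 20 kb. The cause of these changes was not tested. Sites outside repeats were not run, because the genome file marks no repeats. Leaving out a replicate was not possible, since both replicates share 1 mm9 list. No paired analysis was possible because the series has 1 group. Depth is unknown, so weak sites cannot be told from unbound ones.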
